A study of Hydra vulgaris with 113 samples.

Results

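Among the 33820 gene models of the RNA-seq table, 45 had a particular course in the first hours of regeneration of the polyp Hydra vulgaris: higher at 3 h than at 0 h at both wound ends, and then higher at the head-regenerating end than at the foot-regenerating end at 8 h. They were chosen from mean CPM (counts scaled to the total of their library) in untreated tips. The rule took log2(mean CPM + 0.5) and asked for a mean of at least 1 CPM in 8 h head tips and a rise from 0 h to 3 h of at least 0.7 on both sides. It also asked for a head-minus-foot difference of at least 1 at 8 h and of less than 1 in either direction at 0 h. The values at 0, 3 and 8 h without inhibitor therefore describe the selection. The libraries at 12 h and all libraries in the inhibitor iCRT14 had no part in it and carry the tests.

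Polyps of strain 105 were cut between head and foot, and regenerating tips were taken 0, 3, 8 or 12 h later. The lower piece rebuilds a head, and its tips are called head tips here. Foot tips are those of the upper piece. Polyps were untreated or were kept in 5 µM iCRT14, an inhibitor of the binding of TCF to β-catenin, from 2 h before the cut until collection, which makes 2, 10 and 14 h in the inhibitor at 0, 8 and 12 h. The RNA-seq part held 42 libraries, 3 for each of 14 groups of side, time and treatment, each made from about 30 pooled tips. The series holds no RNA library at 3 h in iCRT14. Untreated 0, 3 and 8 h libraries were made with the TruSeq kit (18 libraries), and untreated 12 h libraries and all iCRT14 libraries with the KAPA kit (24 libraries). Each of the 42 libraries held between 13.5 and 44.1 M counts (median 19.0 M). Replicates were compared by a chi-square of their counts per degree of freedom, which also grows with depth. In iCRT14 foot tips at 8 h, replicate 3 gave 75.9 and 68.4 against the others, which gave 11.1 between them. In iCRT14 head tips at 12 h, replicate 3, the deepest library, gave 42.2 and 56.2, against 4.51 between the others. In untreated head tips at 12 h, replicate 1 gave 77.5 and 71.3 against the others, which themselves gave 46.8 between them.

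In Hydra, canonical Wnt signalling is the pathway of the head organizer: Wnt ligands stabilise β-catenin, which enters the nucleus and acts with TCF on target genes. Injury also sets off a general wound response at any cut surface, and the pieces only later take on the identity of the missing end. The RNA table names its gene models only by number. None of these numbers matched the reference gene table, so gene names, functions and genome positions of the 45 members are not given, and the marker lists drawn up for tissue and pathway checks could not be applied.

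The selection steps left 15653 gene models at 1 CPM or more in 8 h head tips and 315 of these with the rise on both sides. Of these, 47 were higher in head tips at 8 h, and 2 were dropped for a difference at 0 h. The opposite course was met by 17 of the 315, of which 4 had no such difference at 0 h. The rise from 0 h to 3 h had a median of 1.83 in head tips (0.75 to 6.35) and of 1.89 in foot tips (0.81 to 6.53) on the log2(mean CPM + 0.5) scale. The medians of the sides were thus close. The head-minus-foot difference had a median of 0.15 at 0 h, of -0.05 at 3 h and of 1.18 at 8 h, where it ran from 1.00 to 2.68.

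At 0 h, 5 members had every head library above every foot library, as did 8.78% of the 15653 gene models, and 1 had the reverse, as did 7.72%. At 3 h, 14 members had every foot library above every head library, as did 8.20% of the 15653 gene models, and 3 had the reverse, as did 10.6%. At 8 h, 44 of 45 members had every head library above every foot library, which the rule itself nearly requires; over the 15653 gene models the share was 10.3%, and 9.76% had the reverse. The values at 3 h and 8 h also come from libraries that the rule used, and a rule that asks for a rise on both sides and then a head excess favours members that are lower in foot tips at 8 h than at 3 h. All 45 members had a lower mean in foot tips at 8 h than at 3 h, with a median difference of -1.70. In head tips 20 of 45 had a higher mean at 8 h than at 3 h, and the median difference was -0.26. Of the 15653 gene models, 42.1% were higher at 8 h than at 3 h in foot tips and 39.6% in head tips. The 20 of 45 in head tips were thus near the share of all gene models. Foot tips at 8 h lay above their own 0 h level in 29 members, with a median of 0.32, and head tips in 44, with a median of 1.38. Over the 15653 gene models these shares were 37.2% and 36.6%. In bulk tips, fewer cells of a type and less RNA per cell cannot be told apart.

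**Figure D1:**
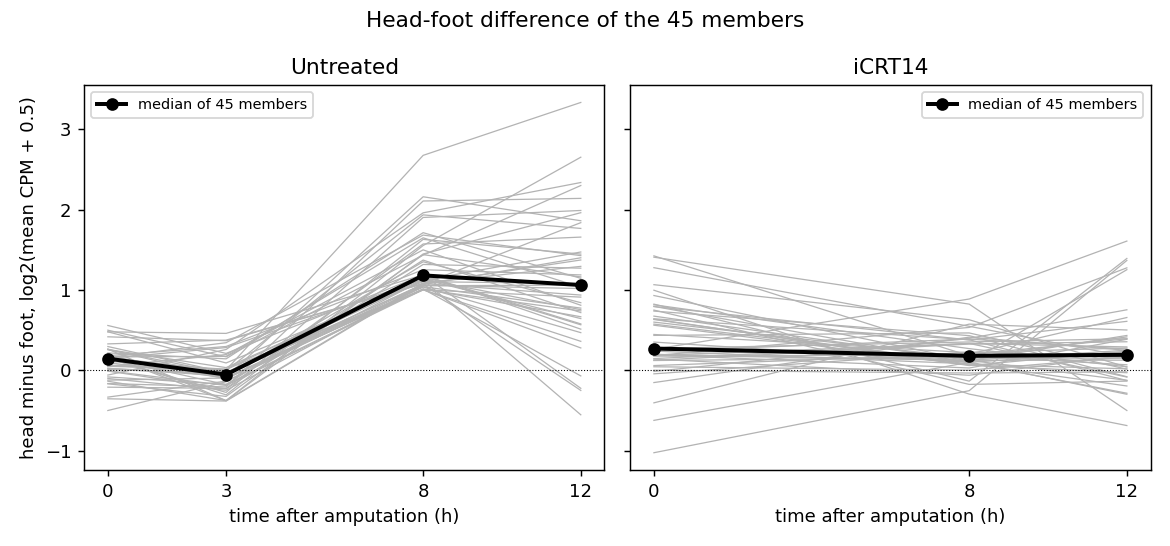
Head-minus-foot difference of log2(mean CPM + 0.5) of the 45 members over time (h), with untreated tips on the left and iCRT14 tips on the right. Grey lines are members and the black line is their median, which was 1.18 at 8 h and 1.06 at 12 h in untreated tips and 0.18 and 0.19 in iCRT14. The 0, 3 and 8 h libraries on the left were used to choose the members.

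The threshold at 8 h fell within a continuum. The member closest to the limit had a head-minus-foot difference of 1.00 and the gene model just outside had 0.996, and 253 gene models met every other condition but this one. The limits on the early rise were less crowded. The closest values were 0.75 inside and 0.68 outside in head tips and 0.81 and 0.68 in foot tips, with 5 gene models failing only the one and 5 only the other. At 0 h the largest difference among members was 0.56 and the next value outside was 1.03. When 1 of the 18 TruSeq libraries was left out, the rule gave 35 to 49 members. In all, 21 of the 45 were kept under each of the 20 other ways of applying the rule.

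The members differed in what happened after 3 h. One course was a sharp early peak. Gene models g11950 and g19768 are named because their CPM, not corrected for length, were the highest of the members in 8 h head tips. The head libraries of g11950 stood at 104, 111 and 122 CPM at 0 h, at 364, 369 and 386 CPM at 3 h and at 161, 182 and 189 CPM at 8 h. Its foot libraries stood at 91.5, 106 and 115 CPM at 0 h, at 364, 370 and 375 CPM at 3 h and at 85.5, 85.9 and 92.6 CPM at 8 h. The foot level at 8 h was thus back in the range of 0 h, and the head level was between those of 0 h and 3 h. Gene model g19768 had 59.3 ± 6.28, 184 ± 9.55 and 151 ± 12.6 CPM in head tips at 0, 3 and 8 h (SD, n = 3 each). In foot tips it had 49.5 ± 5.98, 179 ± 4.38 and 68.4 ± 2.76 CPM. This member kept most of its 3 h level in head tips and lost most of it in foot tips.

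Another course was a head level that went on up. Gene model g18466 was nearly silent at 0 h, with 0.0513, 0.254 and 0.318 CPM in head and 0.0576, 0.111 and 0.418 CPM in foot libraries. At 3 h it was at 24.1, 24.2 and 27.6 CPM in head and 25.9, 26.1 and 27.7 CPM in foot libraries. At 8 h head libraries had 57.3, 58.9 and 59.9 CPM and foot libraries 21.6, 22.6 and 23.8 CPM, so that the foot level was close to that of 3 h. Gene model g29750 had the widest head-minus-foot difference at 8 h, 2.68, with 3.90, 4.13 and 4.95 CPM in head and 0.233, 0.260 and 0.272 CPM in foot libraries. Its counts were low, with 15 counts in the 3 foot libraries together.

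Whether the head excess persisted was asked at 12 h, in libraries that the rule did not use. Of the 45 members, 28 were higher in untreated head than foot tips and none was lower (edgeR quasi-likelihood test on the 24 KAPA libraries, Benjamini-Hochberg adjusted p below 0.05). Among all 19989 gene models tested, 1.35% were called higher and 0.936% lower in head tips. The members' median log2 fold change was 1.29, against -0.015 for all gene models tested, and 42 of 45 were positive. Every head library lay above every foot library in 33 members, as it did in 3.89% of the 15653 gene models, and no member had the reverse, against 7.0%. Without 1 of these 6 libraries the count ran from 21 to 30. Without head replicate 1 the members' median was 1.11, with 25 called, and without head replicate 2 it was 1.45, with 30 called. When the fit held only these 6 libraries, 16 of the 44 members in it were called. The counts over all gene models moved as well, from 456 of 19989 to 1004 of 20753 without head replicate 2. They were 397 of 20758 without head replicate 1 and 126 of 16940 with only these 6 libraries.

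Gene models g29750 and g16493 had the largest differences among the members called. Gene model g29750 stood at 6.78, 7.38 and 10.3 CPM in head and at 0.0606, 0.110 and 0.906 CPM in foot libraries. The groups did not overlap, but the foot libraries held 17 counts in all and spread widely. Its log2 fold change was 4.68 (SE 1.02, edgeR adjusted p = 0.0116), and the adjusted p was 0.0537 without foot replicate 1 and 0.0783 without foot replicate 3. The head libraries of g16493 stood at 6.78, 8.59 and 10.7 CPM and its foot libraries at 1.21, 1.23 and 1.52 CPM (log2 fold change 2.81, SE 0.33, edgeR adjusted p = 7.36e-06). The groups lay far apart, and the call held in each of the 6 fits without 1 of these libraries.

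The 17 members without a call at 12 h were not all alike. Some had positive values short of a call, and a few lay near 0 or below it, down to a log2 fold change of -1.11. Gene models g4715 and g4324 were of the first kind. At 3 h g4715 had stood at 90.1, 102 and 111 CPM in head and at 106, 108 and 110 CPM in foot libraries. At 12 h it stood at 4.85, 6.27 and 7.11 CPM in head and at 3.47, 4.43 and 4.86 CPM in foot libraries. The groups overlapped at their edges, and the log2 fold change was 0.62 (SE 0.25, edgeR adjusted p = 0.293). The means of g4324 were 148 ± 10.6 (head) and 168 ± 1.72 CPM (foot) at 3 h, and 13.3 ± 3.04 and 10.2 ± 4.14 CPM at 12 h, with SD over n = 3 (log2 fold change 0.47, SE 0.26, adjusted p = 0.479). Both were already far below their 3 h levels at 8 h, within the TruSeq kit. The difference of log2(mean CPM + 0.5) from 3 h to 8 h was -2.41 in head and -3.60 in foot tips for g4324, and -3.26 and -4.39 for g4715. From 8 h to 12 h time and kit cannot be told apart.

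**Figure D2:**
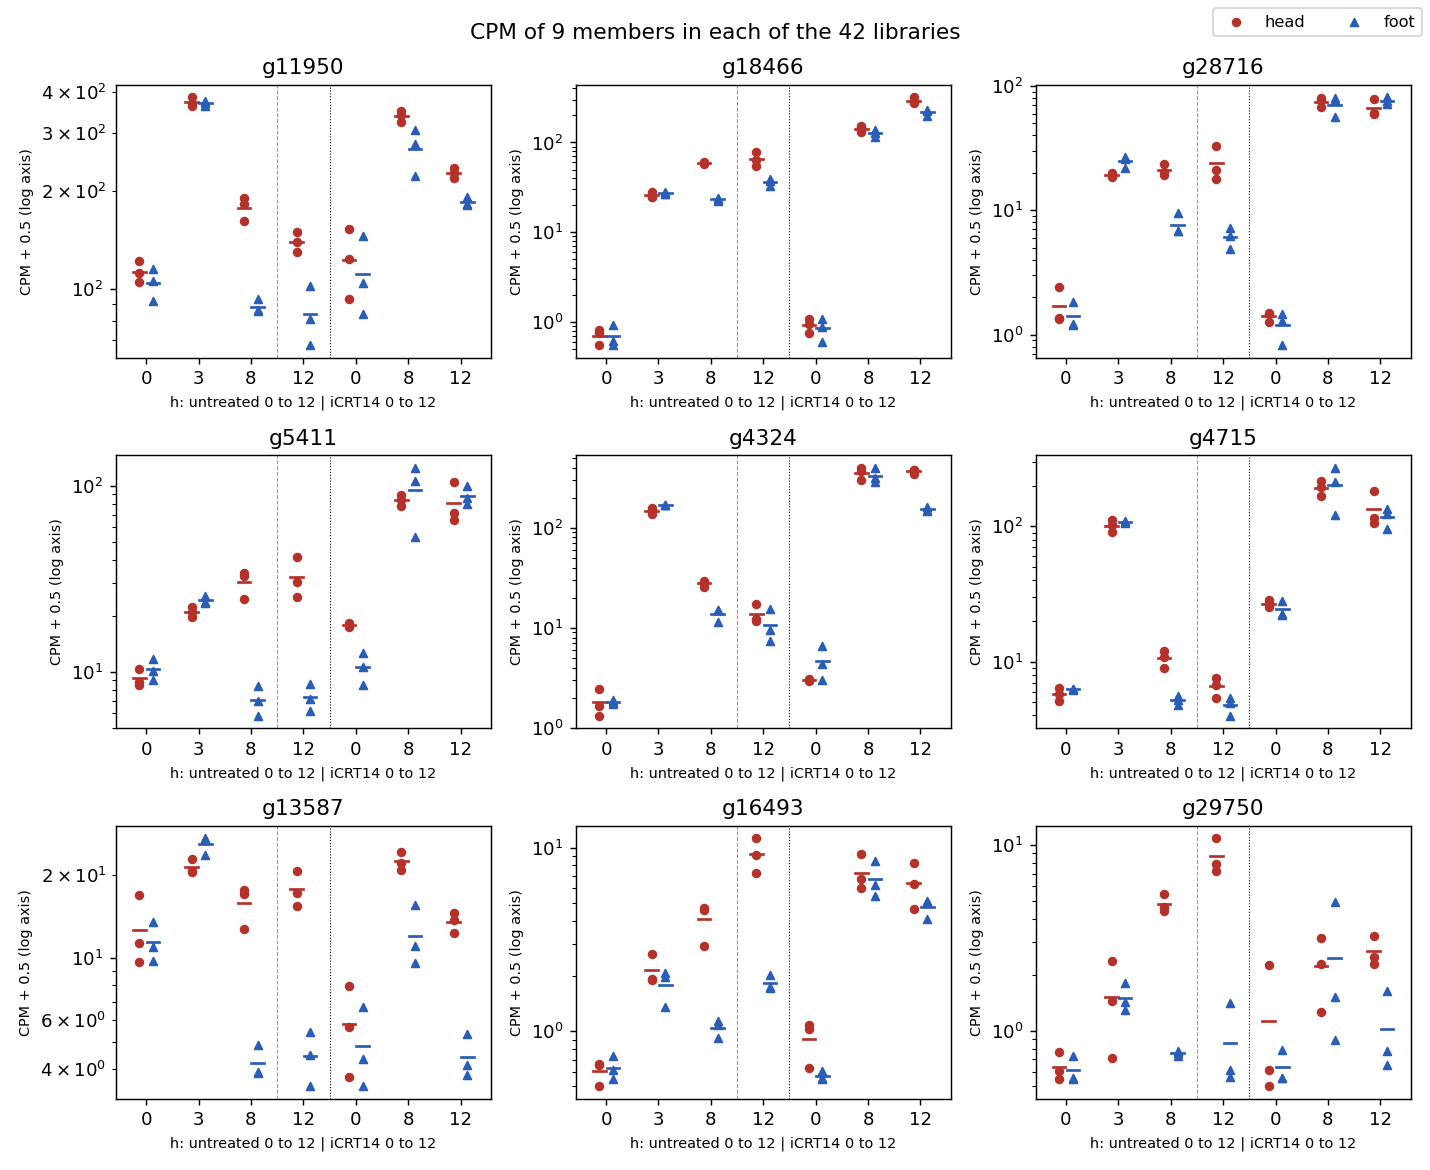
CPM + 0.5 (log axis) of 9 members in each of the 42 libraries, with head tips as red circles, foot tips as blue triangles and group means as bars. Untreated times are left of the dotted line and iCRT14 times right of it, and the dashed line marks the change from the TruSeq to the KAPA kit. For g5411, g28716 and g16493 red and blue part at 8 h and 12 h on the left and lie close together at these times on the right, while for g13587 they are apart at 12 h in both conditions.

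The same head-minus-foot comparison was made in iCRT14, where no library had been used to choose the members. At 0 h, after 2 h in the inhibitor and right after the cut, 1 member was called higher in head tips and none lower, with 0.340% and 0.255% of all gene models tested. The median log2 fold change was 0.39, against 0.059 over all gene models. Every head library lay above every foot library in 18 members and below in 1, against 28.6% and 16.9% of the 15653 gene models. The member called was g506, with 11.7, 13.9 and 21.5 CPM in head and 4.39, 4.43 and 7.77 CPM in foot libraries (log2 fold change 1.44, SE 0.30, edgeR adjusted p = 0.0258). Its groups did not overlap, but the adjusted p was 0.158, 0.169 and 0.191 without foot replicate 1, foot replicate 2 and head replicate 3. The count at 0 h depended on the fit: DESeq2 called 7 members higher and 1 lower, a fit of all 42 libraries 10 and 2, and a fit of only these 6 libraries 11 and 1 of the 37 members in it. The counts over all gene models rose as well, from 119 to 1463 of 19989 with DESeq2, to 3602 of 20894 with all 42 libraries and to 4878 of 17020 with only these 6.

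At 8 h in iCRT14 no member was called by edgeR, with 0.190% of all gene models called higher and 0.255% lower in head tips. At an unadjusted p below 0.05 there were 4 members, all higher in head tips, but the share of all gene models at that cut was not taken. DESeq2 called 1 member higher, and over all 19989 gene models 57 higher and 83 lower. The largest log2 fold change was 0.89 and the median 0.17, against 0 over all gene models. The median was 0.076 without foot replicate 3 and 0.295 without foot replicate 1, and no member was called in either fit. In 8 members every head library lay above every foot library, and in none below, against 6.48% and 3.96% of the 15653 gene models. For g5411 the head libraries stood at 77.3, 83.6 and 88.6 CPM and the foot libraries at 52.5, 105 and 124 CPM. The overlap rests on foot replicate 3, the lowest of these libraries, and the other foot libraries lay above all head libraries. All 6 lay above every untreated library of this gene model.

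At 12 h in iCRT14, 5 members were higher in head tips and none lower, against 28 and none without inhibitor. Over all gene models 0.465% were called higher and 0.430% lower, and the members' median log2 fold change was 0.27, against -0.055 over all gene models. Without head replicate 3 the members' median was 0.132, and 4 members were called. In 15 members every head library lay above every foot library, and in 1 below, against 7.42% and 17.3% of the 15653 gene models. By the naming rule g13587 and g12040 stand for these. Gene model g13587 had 11.8, 13.2 and 14.1 CPM in head and 3.33, 3.64 and 4.86 CPM in foot libraries (log2 fold change 1.78, SE 0.26, edgeR adjusted p = 0.000280). Without inhibitor its head libraries ran from 14.9 CPM upward and its foot libraries stood at 2.98, 4.00 and 4.92 CPM (log2 fold change 2.23, SE 0.26, adjusted p = 6.75e-06). Head and foot libraries were apart in both conditions, and iCRT14 against untreated tips gave log2 fold changes of -0.35 in head (adjusted p = 0.460) and 0.10 in foot tips (adjusted p = 0.860).

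In iCRT14 at 12 h g12040 stood at 7.84, 8.64 and 9.18 CPM in head and at 2.73, 3.19 and 3.79 CPM in foot libraries. These groups were apart (log2 fold change 1.47, SE 0.34, edgeR adjusted p = 0.0358), but none of the 6 fits without 1 of these libraries called it, with adjusted p from 0.0531 to 0.186. The other 3 members called, named after their values were seen because they are so few, were g4324, g15494 and g33661, with log2 fold changes of 1.32, 0.82 and 0.72. The count was 3 without foot replicate 1 and 3 without foot replicate 2.

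**Figure D3:**
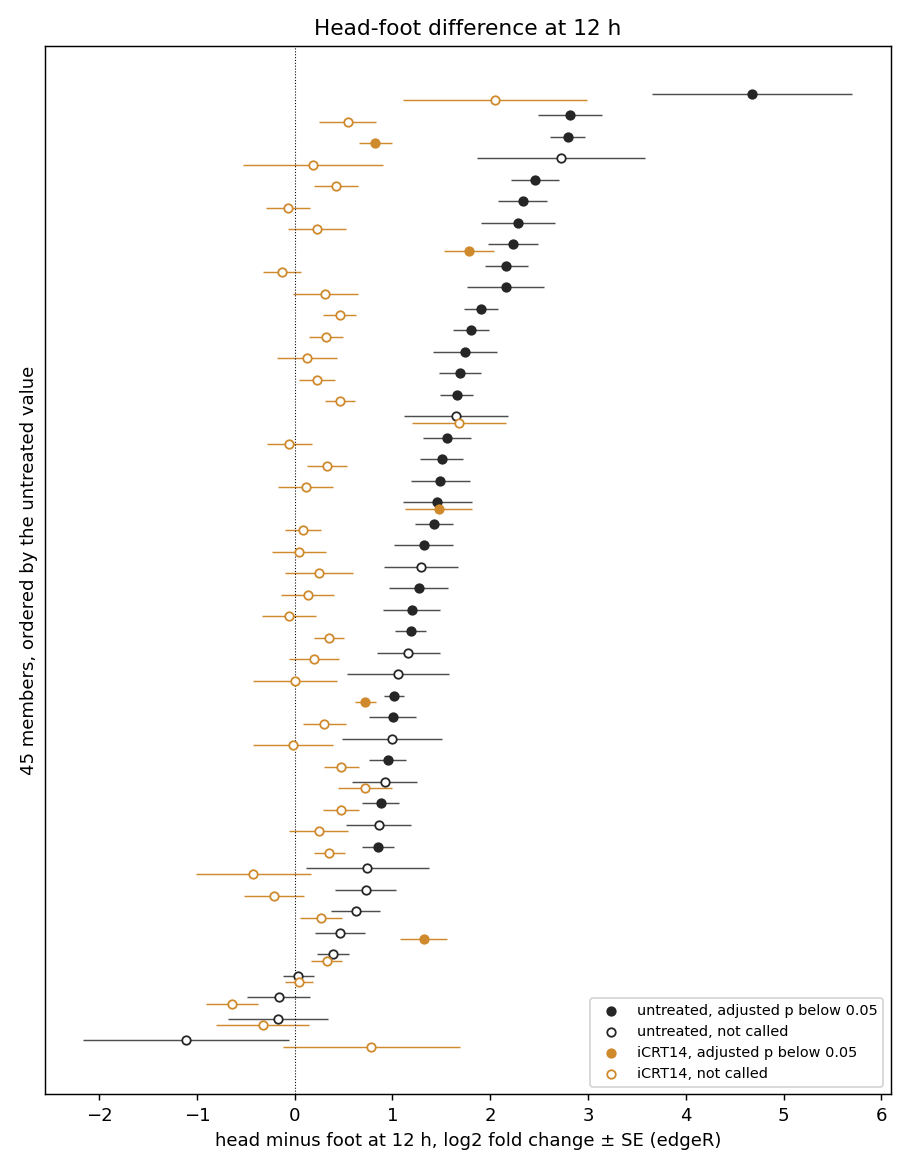
Head-minus-foot log2 fold change at 12 h with its standard error for each of the 45 members, ordered by the untreated value, in untreated tips (black) and in iCRT14 (orange). Filled points have an edgeR adjusted p below 0.05, which 28 members reached without and 5 with inhibitor. In 40 of 45 members the orange point lies below the black one.

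To see which side accounted for the smaller difference, iCRT14 was compared with untreated tips of the same side at 12 h, where both conditions share the KAPA kit. The members stood higher in the inhibitor on both sides. In head tips 31 members were called higher and none lower (27 higher without iCRT14 head replicate 3), with 4.15% of all gene models higher and 4.55% lower. In foot tips 37 were higher and none lower, with 6.47% and 5.53% of all gene models. The median log2 fold change of the members was 1.36 in head tips, where 39 of 45 were positive, and 2.22 in foot tips, where all 45 were positive. The medians over all gene models were -0.005 and -0.020.

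The largest effects in head tips were those of g4324 and g4715. Gene model g4324 had 343, 374 and 378 CPM in iCRT14 and 11.3, 11.7 and 16.8 CPM in untreated head libraries (log2 fold change 4.84, SE 0.28, edgeR adjusted p = 1.08e-10). In foot tips it had 147, 151 and 161 CPM against 6.85, 8.93 and 14.8 CPM (log2 fold change 3.98, SE 0.27, adjusted p = 4.84e-10). No library of the one condition came near those of the other. The levels in iCRT14 at 12 h lay just below those of untreated 3 h libraries in foot tips and above them in head tips, but these libraries differ in kit.

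Gene model g4715 had 105, 114 and 184 CPM in iCRT14 and 4.85, 6.27 and 7.11 CPM in untreated head libraries at 12 h (log2 fold change 4.52, SE 0.25, edgeR adjusted p = 8.11e-11). In foot tips, where its effect was the largest of the members called, the values were 95.2, 124 and 133 against 3.47, 4.43 and 4.86 CPM (log2 fold change 4.88, SE 0.26, adjusted p = 2.16e-11). This gene model was already at 24.7, 26.5 and 27.9 CPM in head and 21.7, 22.1 and 27.8 CPM in foot libraries at 0 h in iCRT14. Its untreated 0 h libraries, made with the other kit, stood at 4.61 to 5.90 CPM in head and 5.71 to 5.82 CPM in foot tips. The next in foot tips was g28791, with 24.4, 24.8 and 25.0 CPM in iCRT14 and 0.606, 1.17 and 2.24 CPM without it (log2 fold change 4.30, SE 0.38, adjusted p = 2.89e-08).

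A few members did not follow this in head tips. Gene model g29750 had 1.78, 1.98 and 2.74 CPM in iCRT14 and 6.78, 7.38 and 10.3 CPM in untreated head libraries at 12 h. These groups did not overlap, with the inhibitor below, but the difference was not called (log2 fold change -1.84, SE 0.82, edgeR adjusted p = 0.199). In a fit of only these 6 libraries 1 member was called lower in head tips and 26 higher. Gene model g16493 had 4.13, 5.82 and 7.75 CPM in iCRT14 against 6.78, 8.59 and 10.7 CPM in head libraries, with a log2 fold change of -0.50 (SE 0.29, adjusted p = 0.358). In foot tips the same gene model was higher in iCRT14, with 3.57, 4.54 and 4.60 CPM against 1.21, 1.23 and 1.52 CPM (log2 fold change 1.78, SE 0.33, adjusted p = 0.000700).

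A contrast of the iCRT14 effect in head tips minus that in foot tips tested whether the effect was unequal. It was called in 11 members, all with a smaller effect in head tips, with 0.175% of all gene models in that direction and 0.0300% in the other. The values of the 11 ran from -2.40 to -1.20. By its definition this contrast equals the head-minus-foot difference in iCRT14 minus that in untreated tips. The foot effect was thus the greater in the same 40 of 45 members whose head-minus-foot difference was lower in iCRT14. The median of the difference was -1.05, against 0.003 over all gene models. These differences rest on 12 libraries and were sensitive to them. The count was 6 without untreated head replicate 1, without iCRT14 foot replicate 2, without iCRT14 head replicate 1 or without iCRT14 head replicate 2. It was 7 without untreated foot replicate 1 or without iCRT14 foot replicate 1, and 6 of the 11 were called in each of the 12 fits. It was 13 without iCRT14 head replicate 3, the deepest library. The median of the difference was -0.726 without untreated head replicate 1 and -1.335 without iCRT14 head replicate 3. In a fit of only these 4 groups the count was 5. The counts over all gene models moved as well, from 41 in the main fit to 24 to 26 in the fits that gave 6. They were 49 without iCRT14 head replicate 3 and 21 with only these 4 groups.

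**Figure D4:**
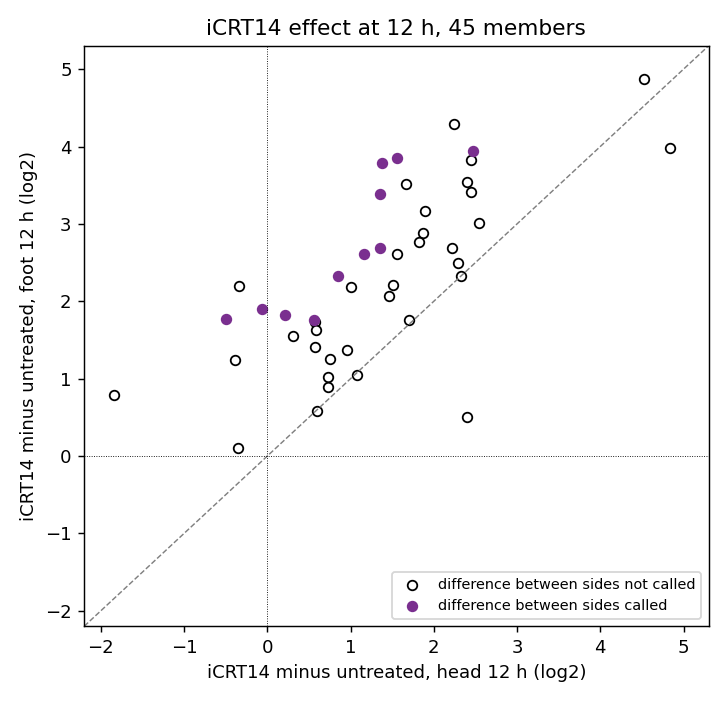
Effect of iCRT14 at 12 h on each of the 45 members as log2 fold change, in head tips on the horizontal and in foot tips on the vertical axis, with the dashed line marking equal effects. Filled points are the 11 members whose effect differed between the sides by edgeR. In 40 of 45 members the point lies above the line, and all 45 lie above 0 on the vertical axis.

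The 2 members named for this test were g5411 and g28716. Gene model g5411 stood at 24.6, 29.8 and 41.1 CPM in head and 5.68, 6.67 and 8.16 CPM in foot libraries without inhibitor at 12 h. In iCRT14 it stood at 65.0, 70.9 and 104 CPM in head and 79.2, 84.9 and 98.8 CPM in foot libraries. A gap between the sides was thus replaced by overlap at a higher level. The overlap rests on head replicate 3, the deepest library, and the other head libraries lay below all foot libraries. The difference of log2 fold changes was -2.40 (SE 0.33, edgeR adjusted p = 0.000410). Without inhibitor g28716 stood at 17.2, 20.4 and 32.3 CPM in head and 4.37, 5.76 and 6.73 CPM in foot libraries. In iCRT14 it stood at 59.2, 60.3 and 78.7 CPM in head and 70.7, 75.7 and 80.5 CPM in foot libraries, again with overlap (difference -2.30, SE 0.29, adjusted p = 0.000129). Here too the overlap rests on head replicate 3, and the other head libraries lay below all foot libraries. For this gene model 69.0% of the 42 values were not whole numbers, as happens where reads match more than one gene model, so its values are uncertain.

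In iCRT14 the change with time was measured from 0 h to 8 h, within one kit. In head tips 40 members were called higher at 8 h and none lower, with 6.39% of all gene models higher and 6.46% lower. In foot tips 42 were higher and none lower, with 10.0% and 7.37% of all gene models. All 45 were positive on both sides, and the median log2 fold change was 3.02 in head and 3.57 in foot tips. These counts ran from 40 to 41 in head and from 40 to 42 in foot tips when 1 library was left out. Without foot replicate 3 at 8 h the foot count was 42, while the count over all gene models went from 3482 to 5428.

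The largest change called in head tips was that of g18466, from 0.252, 0.464 and 0.582 CPM to 130, 144 and 150 CPM (log2 fold change 8.29, SE 0.29, edgeR adjusted p = 1.70e-15). From 0 h to 8 h g28791 went from 0.0485, 0.168 and 0.174 CPM to 24.1, 26.1 and 26.5 CPM (log2 fold change 7.48, SE 0.50, adjusted p = 1.46e-10). Both were near the detection limit at 0 h and clearly expressed in every library at 8 h. In foot tips g16973 had 0 counts in all 3 libraries at 0 h. Its 8 h libraries stood at 8.63, 10.0 and 14.3 CPM, which is at least 69.9-fold higher if each 0 h library is given 3 counts (adjusted p = 4.65e-11). Gene model g18466 went from 0.0966, 0.392 and 0.582 CPM to 115, 126 and 138 CPM in foot tips (log2 fold change 8.38, SE 0.29, adjusted p = 2.34e-15).

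Set beside untreated tips at the same time, the 8 h levels in iCRT14 were the higher on both sides for most members. The difference of log2(mean CPM + 0.5) had a median of 1.43 in head tips, where 41 of 45 were positive, and of 2.64 in foot tips, where 44 of 45 were. The medians over the 15653 gene models were -0.10 and -0.14, with 40.3% and 37.8% positive. At 0 h the medians of the members were 0.13 in head and -0.26 in foot tips, and those of all gene models -0.24 and -0.32. No test was made at 0 h or 8 h, because treatment and kit cannot be told apart there and the rule used the untreated libraries.

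The 45 members were also set beside 249 gene models that met the same conditions except that head and foot tips differed by less than 1 at 8 h. Of the 248 of these in the fit, 46 were called higher in head tips at 12 h without inhibitor, or 18.5%, and 5 lower. The share among the 45 members was 62.2%. In iCRT14 at 12 h, 3 of the 248 were higher and 1 lower in head tips. Against untreated tips at 12 h, 162 of the 248 were higher in iCRT14 in head tips, or 65.3%, with a median of 1.04, and 183 in foot tips, or 73.8%, with a median of 1.28. The shares among the members were 68.9% and 82.2%, and their medians 1.36 and 2.22. From 0 h to 8 h in iCRT14, 85.5% and 89.1% of the 248 were called higher in head and foot tips, against 88.9% and 93.3% of the members. The difference of the iCRT14 effect between the sides was called in 7 of the 248, all with the smaller effect in head tips, or 2.82%, against 24.4% of the members. The 248 were only below the threshold at 8 h and reach up to it, so they are not a set without a head excess. The differences between these shares were not tested.

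Of the 45 members, 32 had whole numbers in all 42 libraries, while 8, g28716 among them, had over 50% of values that were not whole. All 45 passed the filter on low counts of the fit.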

How the data were processed

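RNA-seq of 42 libraries was analysed from a table of estimated counts per gene model, as deposited by the authors. Trimmomatic 0.36, RSEM 1.2.31 and Bowtie2 are named in the submitters' processing notes. The genome build and annotation are not given in the sources used here. In all, 24.8% of values were not whole, and all were rounded for the count models. Printed CPM use library totals, while fold changes come from edgeR 4.0.16 (R 4.3.3) with filterByExpr and TMM scaling, and SE is the fold change divided by the root of its F statistic.

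The 9 contrasts were fitted on the 24 KAPA libraries, 1 mean per group, because these varied more (median within-group SD of log2 CPM 0.267, against 0.138 for TruSeq). The KAPA groups were themselves unequal, from 0.18 in iCRT14 foot tips at 0 h to 0.379 in untreated head tips at 12 h. The fit pools their spread, so its error is not that of each group. Tests were two-sided, with Benjamini-Hochberg adjustment over 19989 gene models. Members named are the 2 highest and 2 lowest fold changes called per contrast, plus the 2 with the highest CPM in 8 h head tips. Members, lists and this choice of libraries were made with earlier results of these data known.

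In data simulated for the 12 h head-foot comparison, 55.0% of 100 2-fold and 92.0% of 100 4-fold changes were recovered. There were 4 false calls over 19989 gene models. The changes were planted only in gene models above a minimum mean count, so these shares are not those of all gene models. Each gene model had a single dispersion for all groups. The wider spread of the untreated 12 h groups (median SD 0.379 in head and 0.327 in foot tips) was therefore not simulated. No 2 replicates were alike within sampling noise (smallest chi-square per degree of freedom 2.61 over 42 pairs). The series' design text calls replicates biological. The 71 ATAC-seq libraries were not used here, since no table ties peaks to these gene models.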

Additional observations from a re-analysis of the deposited data

Results flagged for a closer look

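The effect of iCRT14 at 12 h differed between head and foot tips in 11 members by the test of the difference itself (edgeR). The 2 named for it were g5411, with a difference of log2 fold changes of -2.40, and g28716, with -2.30. In 3 of the 11 members, g28716 included, over 50% of the values were not whole numbers. No group had more than 3 libraries, so single outlying libraries were not tested.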

How the results depend on the processing

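The rule for members gave 31 under a pseudocount of 1, 47 with TMM-scaled library sizes and 35 to 49 without 1 library. In the contrasts, RLE scaling changed no count by over 1.5 times. Without the filter on low counts, 3 members were called in iCRT14 at 0 h in place of 1. The fit of all 42 libraries called 12 there and 1 at 8 h in iCRT14 in place of 0, and DESeq2 called 8 and 1. Over all gene models the counts at 0 h rose from 119 to 3602 of 20894 and 1463 of 19989, and without the filter to 484 of 30725, so the rise was not one of members alone. At 8 h in iCRT14 the counts over all gene models rose from 89 to 216 of 20894 and 140 of 19989. Fits of only the groups compared called 16 in untreated tips at 12 h in place of 28, 12 in iCRT14 at 0 h in place of 1, and 5 for side by treatment in place of 11. In the fit of only the groups at 0 h, 4878 of 17020 gene models were called, and with the block below 5195. For untreated tips at 12 h these counts were 126 and 35 of 16940, against 456 of 19989 in the main fit. For side by treatment they were 21 and 14 of 18459, against 41 of 19989. Same-numbered libraries did not deviate together in all pairs (r from -0.294 to 0.189 over 24 pairs), so the numbers were not taken as pairs. For head against foot tips in iCRT14, r of same-numbered libraries was 0.023 to 0.04 at 0 h and 0.042 to 0.055 at 12 h. Libraries of unlike number gave at most 0.008 there. Whether the libraries of these times were paired was not tested. With the replicate number as a block in these fits, the counts were 6 in untreated tips at 12 h, 15, 0 and 8 in iCRT14 at 0, 8 and 12 h, and 3 for side by treatment. For iCRT14 against untreated tips they were 28 in head and 38 in foot tips, and for 8 h against 0 h in iCRT14 42 and 41. The cause was not tested.

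Without 1 library of the contrast, counts ran from 21 to 30 in untreated tips at 12 h, from 0 to 2, 0 to 0 and 3 to 4 in iCRT14 at 0, 8 and 12 h, from 6 to 13 for side by treatment, from 27 to 32 and 36 to 38 for iCRT14 against untreated head and foot tips, and from 40 to 41 and 40 to 42 for 8 h against 0 h. Over all gene models the counts ran from 284 to 1004 in untreated tips at 12 h and from 24 to 49 for side by treatment. Of 192 recomputed fold changes of named members, 180 kept direction and call, 12 lost the call and 0 reversed.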
